A study of Homo sapiens with 2 samples.

Results

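Entry into mitosis, the building of the spindle and the cutting of the cell in 2 are carried out by many proteins. For many of them the mRNA is made mainly in the G2 and M phases of the division cycle. This account covers 54 genes, chosen by name for their part in mitosis, the spindle and the kinetochore. They were chosen with earlier results of these data known, out of 12931 genes with a signal above the floor in at least 1 array. All 54 were read by at least 1 probe set that the platform annotation gives to that gene alone. For a gene with several probe sets, the one brightest on average over the 2 arrays stands for it.

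The series compares PC-3 cells, a human prostate cancer line from a bone metastasis that grows without androgen. The series' design text gives the siSHISA2 cells a short hairpin RNA (shRNA) vector against SHISA2 and the siCONTROL cells a control shRNA vector, while the sample names begin with si, the usual prefix for small interfering RNA. SHISA2 belongs to a family of endoplasmic reticulum proteins that hold back Frizzled and fibroblast growth factor receptors. Each group is 1 array. The number of cultures behind each RNA, the harvest time and the hairpin sequences are not given in the sources used here, and effects of the SHISA2 knockdown and other effects of this 1 reagent cannot be told apart.

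In a dividing cell, cyclin B bound to CDK1 drives entry into mitosis once CDC25 phosphatases remove inhibitory phosphates from the kinase. Kinetochores then link each chromosome to spindle microtubules, and the spindle checkpoint holds back the anaphase-promoting complex until all are attached. Promoters of many such genes carry CCAAT boxes, which nuclear factor Y binds, and a cell cycle genes homology region (CHR), to which the MuvB core of the DREAM complex binds. DREAM represses these genes in resting cells, and MuvB with MYBL2 and FOXM1 activates them in G2.

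These promoter letters were looked up because all members had log2 ratios on the same side of 0. RefSeq promoter sequences (GRCh38.p14) matched 46 of the 54 members, and those without an entry were AURKA, BIRC5, FOXM1, BUB3, TTK, UBE2C, TPX2 and RACGAP1. In the 250 bases before the annotated start, CCAAT on either strand was found in 31 of 46 members (67.4%), against 33% of 27305 promoters. The core CHR letters TTTGAA, on either strand, were found in 21 of 46 (45.7%), against 13.6% of all promoters. The variant TTCGAA was in none of the 46, against 1.20% of all promoters. When the window was extended to 50 bases after the start, a choice made after seeing the data, 31 of 46 members held TTTGAA (67.4%), against 15.4% of all promoters, 32 held CCAAT (69.6%), against 35.7%, and 2 held TTCGAA (4.35%), against 1.45%. Overlapping CCAAT matches on opposite strands were counted separately.

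The 6 sequences that follow, each 250 bases 5′ to 3′ on the gene's strand, were picked by hand after the ratios and sequences were seen. KIF23, PLK1, TOP2A and CDC25C are among the members far from 0, CCNB2, with a ratio near the members' median, is shown for its several CCAAT, and KIF18A is the member nearest to 0. Capitals mark CCAAT and TTTGAA on either strand. They lie at chr15:69414099-69414348 on the plus strand for KIF23, chr16:23678639-23678888 on the plus strand for PLK1, chr17:40417897-40418146 on the minus strand for TOP2A, chr15:59104896-59105145 on the plus strand for CCNB2, chr5:138338356-138338605 on the minus strand for CDC25C and chr11:28108157-28108406 on the minus strand for KIF18A.
KIF23: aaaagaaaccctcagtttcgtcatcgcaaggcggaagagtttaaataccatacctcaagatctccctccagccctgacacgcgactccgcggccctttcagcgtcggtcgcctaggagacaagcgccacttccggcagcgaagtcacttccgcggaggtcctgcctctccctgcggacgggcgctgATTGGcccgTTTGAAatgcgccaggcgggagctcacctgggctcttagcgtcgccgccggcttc
PLK1: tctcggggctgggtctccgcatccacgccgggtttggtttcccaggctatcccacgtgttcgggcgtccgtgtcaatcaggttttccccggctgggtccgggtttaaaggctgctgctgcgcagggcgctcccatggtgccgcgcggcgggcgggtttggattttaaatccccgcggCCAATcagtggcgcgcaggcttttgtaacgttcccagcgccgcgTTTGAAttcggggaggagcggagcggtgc
TOP2A: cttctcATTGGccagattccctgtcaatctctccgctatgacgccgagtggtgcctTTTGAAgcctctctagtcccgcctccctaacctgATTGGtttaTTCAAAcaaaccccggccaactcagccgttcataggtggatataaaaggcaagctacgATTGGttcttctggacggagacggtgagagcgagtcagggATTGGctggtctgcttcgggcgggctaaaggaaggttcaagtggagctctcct
CCNB2: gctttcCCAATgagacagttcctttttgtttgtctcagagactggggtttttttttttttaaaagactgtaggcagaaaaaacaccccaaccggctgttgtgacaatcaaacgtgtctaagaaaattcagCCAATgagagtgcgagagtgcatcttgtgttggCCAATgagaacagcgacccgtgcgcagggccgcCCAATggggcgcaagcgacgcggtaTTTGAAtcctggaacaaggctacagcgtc
CDC25C: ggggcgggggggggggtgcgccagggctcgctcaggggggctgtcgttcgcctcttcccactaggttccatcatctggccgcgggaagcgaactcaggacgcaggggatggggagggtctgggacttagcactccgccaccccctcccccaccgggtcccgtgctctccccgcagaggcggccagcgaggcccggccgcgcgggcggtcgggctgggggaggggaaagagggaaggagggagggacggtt
KIF18A: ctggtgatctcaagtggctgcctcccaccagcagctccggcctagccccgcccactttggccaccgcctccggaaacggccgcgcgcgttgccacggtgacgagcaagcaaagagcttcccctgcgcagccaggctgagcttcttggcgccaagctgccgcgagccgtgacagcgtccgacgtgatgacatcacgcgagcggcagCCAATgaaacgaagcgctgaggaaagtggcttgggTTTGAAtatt

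KIF23 and PLK1 each hold 1 CCAAT and 1 TTTGAA. TOP2A holds 4 and 2, CCNB2 holds 4 and 1, and the CDC25C window holds neither. Only 1 annotated start per gene was searched, so an empty window does not show that a gene lacks these letters near another start. KIF18A, whose log2 ratio was nearest to 0, holds 1 of each. Members with TTTGAA in the 250 bases had a median log2 ratio of -0.47 (21 genes), and those without it one of -0.39 (25 genes). Members with CCAAT had a median of -0.44 (31 genes) and those without it one of -0.41 (15 genes). Neither difference between medians was tested.

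All 54 members had a lower signal in the siSHISA2 array than in the siCONTROL array, against 47.8% of all measured genes. The members were chosen with earlier results of these data known, so this count is no independent test. Their median log2 ratio, siSHISA2 over siCONTROL, was -0.43, which is 1.35-fold lower, while the median over all measured genes was 0.01. Member ratios ran from -0.68 for KIF23 to -0.06 for KIF18A. In 38 of 54 members the siSHISA2 signal was at or under 80% of the siCONTROL signal, against 12.0% of all measured genes, and 7 were at least 1.5-fold lower, against 3.77%. None reached 2-fold, against 0.565%. With 1 array per group no difference could be tested, so these are sizes and not calls of significance. In RNA from a whole culture, fewer cells in G2 and mitosis and less of each mRNA per cell cannot be told apart.

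**Figure D1:**
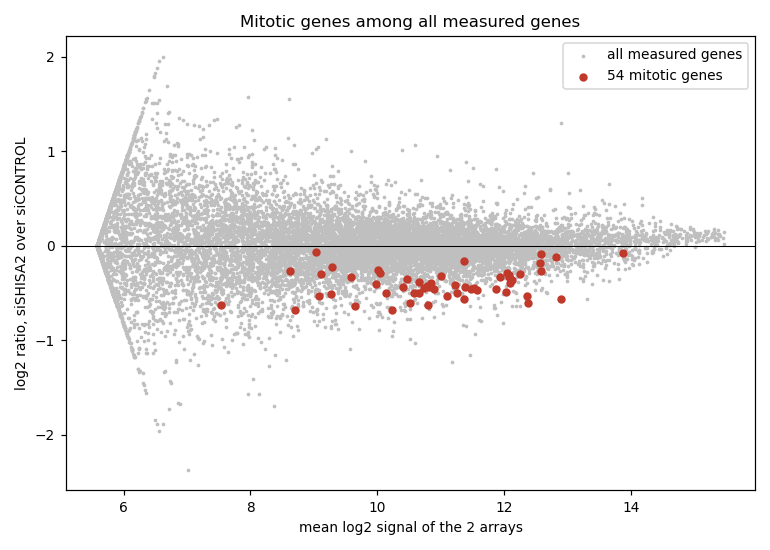
Each point is a gene, with the mean log2 MAS5 signal of the 2 arrays on the x axis and the log2 ratio of siSHISA2 over siCONTROL on the y axis; grey points are all 12931 measured genes and red points the 54 mitotic genes. Every red point lies below 0, between -0.68 and -0.06, and the grey cloud widens at low signal, where the lines at its left edge come from the floor of 47.9.

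Low signals scatter more, so the comparison was repeated among genes with both signals above 387.3, the 75th percentile of all signals. Of the members 51 met this limit, all but PLK1, CDC25C and KIF15. All 51 were below 0, against 49.8% of the 7650 genes of that kind. In this set 36 members were at or under 80% of the siCONTROL signal, against 6.99%, and 5 at least 1.5-fold lower, against 1.37%. No member was 2-fold lower, against 0.0523%. The median of the 51 members was -0.42, and that of the 7650 genes 0.00.

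SHISA2 itself read 1506.2 in the siSHISA2 array, against 3536.1 in the siCONTROL array (42.6%, log2 ratio -1.23). The median signal was 50.3 in the siSHISA2 array and 45.6 in the siCONTROL array, and no depth in counts exists for arrays. As a measure of RNA integrity, the 3' probe set of ACTB was 4.79 times as bright as the 5' one in siSHISA2 cells and 5.0 times in siCONTROL cells, and for GAPDH the ratio was 1.36 in siSHISA2 and 1.55 in siCONTROL cells. Of 6 markers known in PC-3, KRT8, KRT18, EPCAM, CD44 and VIM were above the floor with log2 ratios from -0.20 to -0.06, and KRT19 was under it in both arrays. KLK3, which encodes prostate-specific antigen and which PC-3 is known to lack, read 251.0 in siSHISA2 against 242.3 in siCONTROL on a probe set of the kind that can share probes. KLK2, also known to be absent from PC-3, read 71.3 in siSHISA2 against 20.6 in siCONTROL, the second under the floor (log2 ratio 0.57 against the floor). The other genes of that list were not analysed here. Of 12 markers of other cell types, 6 were above the floor in at least 1 array, with log2 ratios from -0.45 (COL1A1) to 0.75 (CDH5), 5 of the 6 above 0 and a median of 0.24, and PTPRC, CD14, VWF, COL1A2, CHGA and SYP were under it in both. Their part in the results was not tested.

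**Figure D2:**
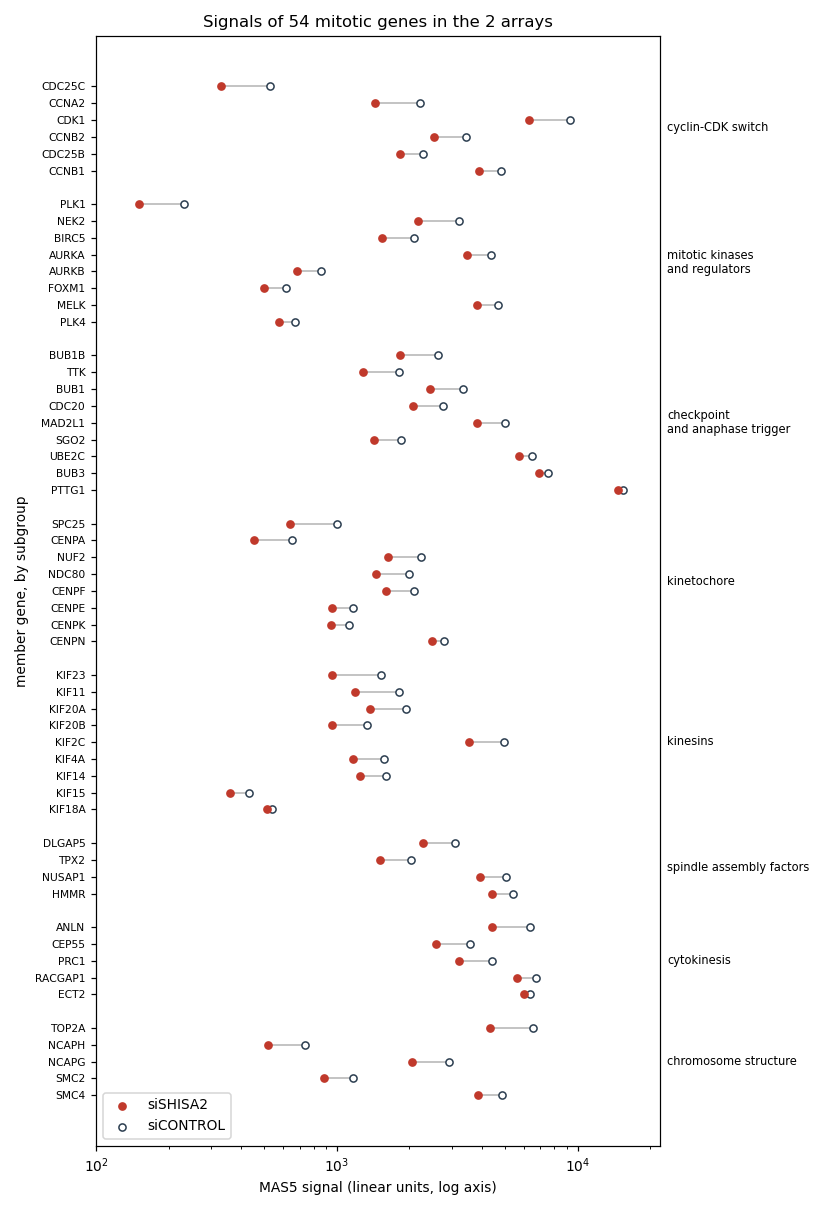
MAS5 signal of each of the 54 members (x axis, linear units on a log scale) by subgroup, with filled red points for the siSHISA2 array and open points for the siCONTROL array. The red point lies left of the open one in every row, by a wide gap for KIF23 and a narrow one for KIF18A; signals of different genes come from different probes and are not comparable in height.

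The cyclin-CDK switch had a median log2 ratio of -0.50 over 6 genes. CCNA2, encoding cyclin A2, which acts in S phase and G2, read 1437.3 in the siSHISA2 array, against 2210.5 in the siCONTROL array (log2 ratio -0.62). CDK1, the kinase that both A- and B-type cyclins activate, read 6300.6 in siSHISA2 against 9307.7 in siCONTROL (-0.56). The mitotic cyclins lay closer to 0. CCNB2 read 2537.4 in siSHISA2 against 3441.6 in siCONTROL (-0.44), and CCNB1 read 3910.9 in siSHISA2 against 4826.0 in siCONTROL (-0.30). Of the activating phosphatases, CDC25C read 329.8 in siSHISA2 against 526.1 in siCONTROL (-0.67) and CDC25B 1834.9 in siSHISA2 against 2286.1 in siCONTROL (-0.32).

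Both measured probe sets of CCNA2 were lower (-0.62 and -0.76), as were both of CCNB1 (-0.30 and -0.46). CDK1 had 3 probe sets between -0.56 and -0.41, and a dim one at 63.2 in siSHISA2 against 51.3 in siCONTROL (0.30). The other probe set of CDC25C, at 57.6 in siSHISA2 against 45.9 in siCONTROL, had its siCONTROL signal under the floor and stood at 0.27.

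Mitotic kinases and their regulators had the median nearest to 0 of the 8 subgroups, at -0.33 over 8 genes. Without the _x_at and _s_at kinds of probe set, the genes still measured had a median of -0.51. PLK1, the Polo-like kinase of mitotic entry and spindle poles, read 150.2 in siSHISA2 against 230.9 in siCONTROL (-0.62) on a single probe set. NEK2, which separates the centrosomes, read 2175.4 in siSHISA2 against 3217.6 in siCONTROL (-0.56), and its other probe set stood at -0.61. Aurora A, encoded by AURKA and acting at spindle poles, read 3482.0 in siSHISA2 against 4380.8 in siCONTROL (-0.33). Aurora B, the kinase of the chromosomal passenger complex encoded by AURKB, read 683.2 in siSHISA2 against 858.1 in siCONTROL (-0.33). BIRC5, encoding survivin, a partner of Aurora B, read 1546.5 in siSHISA2 against 2088.1 in siCONTROL (-0.43), but its 4 probe sets ran from -0.51 to -0.02.

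FOXM1, the forkhead factor that activates G2 genes, read 500.0 in siSHISA2 against 613.5 in siCONTROL (-0.30) on a probe set of the _x_at kind, which can share probes with other transcripts. MELK, a kinase of dividing cells, read 3830.8 in siSHISA2 against 4660.6 in siCONTROL (-0.28). For PLK4, the kinase that starts centriole duplication, the choice of probe set decided the size. Its brightest probe set read 575.4 in siSHISA2 against 672.3 in siCONTROL (-0.22), and the other one 313.2 in siSHISA2 against 686.6 in siCONTROL (-1.13).

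The checkpoint and anaphase group of 9 genes had a median of -0.39 and was uneven. Its kinases were all lower by a similar amount. BUB1 read 2437.6 in siSHISA2 against 3353.9 in siCONTROL (-0.46), BUB1B, which encodes BubR1, 1822.5 in siSHISA2 against 2636.1 in siCONTROL (-0.53), and TTK, the Mps1 kinase that starts the signal, 1286.7 in siSHISA2 against 1812.2 in siCONTROL (-0.49). MAD2L1, encoding the Mad2 inhibitor, read 3818.8 in siSHISA2 against 5003.1 in siCONTROL (-0.39). Its target CDC20, the activator of the anaphase-promoting complex, read 2074.2 in siSHISA2 against 2754.3 in siCONTROL (-0.41). SGO2, a shugoshin that protects centromeric cohesin, read 1421.0 in siSHISA2 against 1852.4 in siCONTROL (-0.38), with -0.44 on its other probe set.

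Smaller differences were seen for BUB3, UBE2C and PTTG1. BUB3, the adaptor that brings BUB1 and BubR1 to kinetochores, read 6941.2 in siSHISA2 against 7500.9 in siCONTROL (-0.11), and its 4 probe sets ran from -0.11 to 0.01. UBE2C, the ubiquitin-conjugating enzyme of the anaphase-promoting complex, read 5702.0 in siSHISA2 against 6463.9 in siCONTROL (-0.18). PTTG1, encoding securin, the inhibitor of separase, read 14680.6 in siSHISA2 against 15478.0 in siCONTROL (-0.08), on a probe set of the _x_at kind.

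Kinetochore genes had a median of -0.42 over 8 genes. Among the members of the microtubule-binding Ndc80 complex, SPC25 read 641.4 in siSHISA2 against 999.5 in siCONTROL (-0.64), NUF2 1629.7 in siSHISA2 against 2235.7 in siCONTROL (-0.46) and NDC80 1459.2 in siSHISA2 against 1984.0 in siCONTROL (-0.44). The remaining subunit, SPC24, which is no member, read 93.0 in siSHISA2 against 222.3 in siCONTROL (-1.26) at low signals. All subunits of this complex were thus lower in the siSHISA2 array. CENPA, the histone H3 variant that marks centromeres, read 452.2 in siSHISA2 against 653.1 in siCONTROL (-0.53) on a single probe set of the _x_at kind. CENPF, a large coat protein of the outer kinetochore, read 1604.3 in siSHISA2 against 2097.6 in siCONTROL (-0.39), with -0.51 on its other probe set. CENPE, a kinesin that moves chromosomes to the metaphase plate, read 958.2 in siSHISA2 against 1169.7 in siCONTROL (-0.29). CENPK, an inner kinetochore subunit, read 944.7 in siSHISA2 against 1128.0 in siCONTROL (-0.26). CENPN, another inner subunit, had the ratio nearest to 0 of the 8 on its brightest probe set, at 2494.0 in siSHISA2 against 2776.3 in siCONTROL (-0.15), but its second probe set read 1124.9 in siSHISA2 against 1433.8 in siCONTROL (-0.35).

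The 9 kinesins, motors that slide, cross-link or shorten spindle microtubules, had a median of -0.48. KIF23, the motor of centralspindlin at the midzone, read 956.0 in siSHISA2 against 1528.7 in siCONTROL (-0.68), and KIF11, the Eg5 motor that pushes the poles apart, 1186.7 in siSHISA2 against 1804.1 in siCONTROL (-0.60). KIF20A, which brings passenger proteins to the midzone, read 1366.6 in siSHISA2 against 1931.8 in siCONTROL (-0.50), and its relative KIF20B 950.2 in siSHISA2 against 1337.6 in siCONTROL (-0.49). KIF2C, a microtubule depolymerase at centromeres, read 3522.5 in siSHISA2 against 4927.8 in siCONTROL (-0.48), and -0.57 on its other probe set. KIF4A, a chromosome-arm motor, read 1162.4 in siSHISA2 against 1570.2 in siCONTROL (-0.43). KIF14, which acts in cytokinesis, read 1253.1 in siSHISA2 against 1593.7 in siCONTROL (-0.35), and KIF15, which can back up KIF11, 361.2 in siSHISA2 against 432.7 in siCONTROL (-0.26). KIF18A, which limits chromosome oscillation, was the exception in size, at 513.8 in siSHISA2 against 536.1 in siCONTROL (-0.06) on a single probe set.

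**Figure D3:**
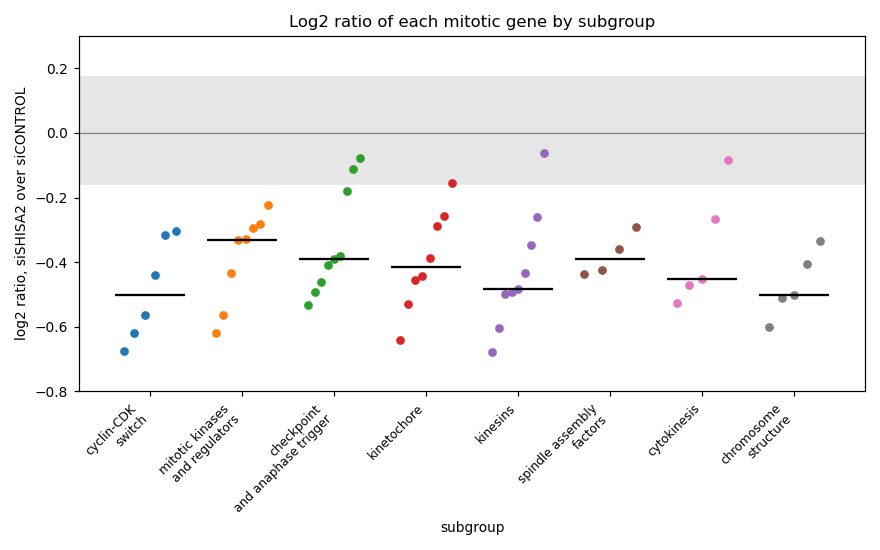
Log2 ratio of siSHISA2 over siCONTROL (y axis) for each of the 54 members, sorted within 8 subgroups (x axis); black bars are subgroup medians and the grey band runs from the 25th to the 75th percentile of all measured genes, -0.16 to 0.17. Medians lie between -0.50 and -0.33, and only 5 members, PTTG1, BUB3, CENPN, KIF18A and ECT2, lie in the band.

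Spindle assembly factors had a median of -0.39 over 4 genes and the narrowest range. DLGAP5, which stabilises kinetochore fibres, read 2287.6 in siSHISA2 against 3094.9 in siCONTROL (-0.44). TPX2, the activator of Aurora A on the spindle, read 1515.4 in siSHISA2 against 2033.8 in siCONTROL (-0.42). NUSAP1, a microtubule bundler, read 3934.7 in siSHISA2 against 5047.7 in siCONTROL (-0.36), and -0.46 on its other probe set. HMMR, which acts at spindle poles, read 4414.9 in siSHISA2 against 5404.3 in siCONTROL (-0.29), and -0.47 on its other probe set.

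Cytokinesis genes had a median of -0.45 over 5 genes. ANLN, the actin-binding protein anillin of the contractile ring, read 4389.1 in siSHISA2 against 6317.9 in siCONTROL (-0.53), and -0.55 on its other probe set. CEP55, a midbody protein of abscission, read 2584.7 in siSHISA2 against 3578.7 in siCONTROL (-0.47), and PRC1, which bundles midzone microtubules, 3212.9 in siSHISA2 against 4396.9 in siCONTROL (-0.45). RACGAP1, the partner of KIF23 in centralspindlin, read 5575.8 in siSHISA2 against 6707.5 in siCONTROL (-0.27), a difference of 0.41 in log2 ratio between the subunits. ECT2, the exchange factor that RACGAP1 recruits to activate RhoA, read 5969.0 in siSHISA2 against 6330.9 in siCONTROL (-0.08), while its other measured probe set, at 350.5 in siSHISA2 against 462.4 in siCONTROL, stood at -0.40.

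Genes of chromosome structure had a median of -0.50 over 5 genes, the same as the cyclin-CDK switch at this precision. TOP2A, the topoisomerase that untangles sister chromatids, read 4309.6 in siSHISA2 against 6537.6 in siCONTROL (-0.60), and its second bright probe set 2835.5 in siSHISA2 against 4311.2 in siCONTROL (-0.60). Among condensin I genes, NCAPH read 516.0 in siSHISA2 against 735.4 in siCONTROL (-0.51) and NCAPG 2058.4 in siSHISA2 against 2912.0 in siCONTROL (-0.50), with -0.71 on the other probe set of NCAPG. Of the ATPase subunits, SMC2 read 881.5 in siSHISA2 against 1168.7 in siCONTROL (-0.41), with 419.3 in siSHISA2 against 457.1 in siCONTROL (-0.12) on its other probe set, and SMC4 3859.9 in siSHISA2 against 4863.3 in siCONTROL (-0.33). NCAPD2, the remaining subunit and no member, stood at -0.31. On their brightest probe sets the 5 condensin I genes lay within 0.20 of each other, but single probe sets of NCAPG and SMC2 lay as far apart as -0.71 and -0.12. SMC4 had 1 probe set of the _x_at kind on the other side of 0, at 727.4 in siSHISA2 against 597.3 in siCONTROL (0.28).

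The members' ratios were set against the spread between probe sets of the same gene. For this, the log2 ratios of a gene's 2 brightest probe sets were subtracted, and the SD of these differences over genes was divided by the square root of 2 to give the spread of a single reading. It came to 0.150 for the 2827 genes with 2 probe sets that had both signals above 387.3, and to 0.120 for 18 such members. Without that limit on brightness the spread was 0.286 for 6428 genes and 0.242 for 27 members. The SD among the 54 member ratios, 3 of them from dimmer probe sets, was 0.154. The subgroup medians, each over 4 to 9 genes, spanned -0.50 to -0.33. This spread of single readings is no measure of the error of a median, and no test of a difference between subgroups was possible. Across the 54 members the ratio and the mean log2 signal had a Pearson correlation of 0.28, given as a description because all points share the same 2 arrays.

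The members' further probe sets repeat the reading on other probes of the same RNA. For 25 of the 54 members, KIF23 and KIF18A among them, the brightest probe set was of the _x_at or _s_at kind. Of 105 probe sets given to a member alone, 93 were measured, and 87 of them were below 0. The 93 include the brightest probe sets of the 54 members, already counted above. Over all measured genes, 47.8% were below 0 on the brightest probe set. Leaving aside the brightest probe set of each gene, 33 of 39 were below 0 with a median of -0.41, while 47.9% of the 11576 further probe sets of all genes were below 0, with a median of 0.02. Of the 27 members with several measured probe sets, 21 were lower on all of them. The exceptions were CDK1, CDC25C, KIF20B, CENPN, SMC4 and BUB3. In CDK1, CDC25C, KIF20B and CENPN the probe set above 0 was dim, with signals of at most 63.2. Among probe sets with both signals above 387.3, 71 of 73 were below 0. These include the brightest probe sets of 51 members, so most of them are no further reading. The share over all bright probe sets was not computed. Of the 7650 genes with both signals above that limit, 49.8% were below 0.

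**Figure D4:**
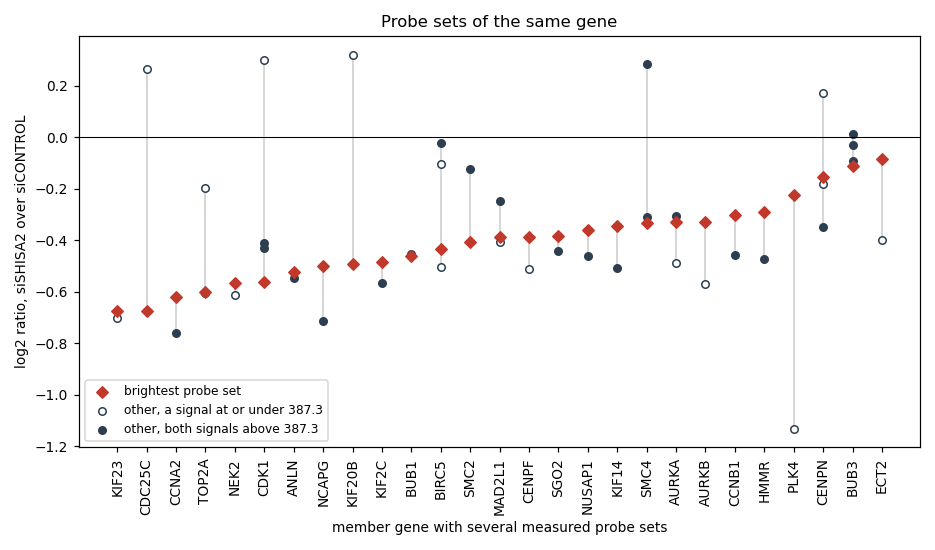
Log2 ratio of siSHISA2 over siCONTROL (y axis) of every measured probe set of the 27 members that have several (x axis), with a diamond for the brightest probe set, filled circles for others with both signals above 387.3 and open circles for the rest. Filled symbols lie below 0 except 1 each for SMC4 and BUB3, and gaps are wide for PLK4, from -0.22 to -1.13, and for CDC25C, from -0.67 to 0.27.

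Further mitotic genes outside the 54 were read from other lists, also chosen with earlier results of these data known. The share to set beside each count below 0 is 47.8%, that of all measured genes. Of 27 measured kinetochore and centromere genes 24 were below 0, with a median of -0.28. Besides SPC24, CENPI, an inner kinetochore subunit, read 160.5 in siSHISA2 against 244.3 in siCONTROL (-0.61). The other probe set of CENPI stood at -0.15. HJURP, the chaperone that loads CENPA, stood at -0.56. CENPT, another inner subunit, was highest at 0.46 with signals of 109.5 in siSHISA2 against 79.8 in siCONTROL. Of 22 measured spindle and cytokinesis genes 21 were below 0, with a median of -0.31. ASPM, a spindle pole protein, read 2972.0 in siSHISA2 against 4675.5 in siCONTROL (-0.65), SPAG5, encoding astrin, -0.64 and CKAP2L -0.64, and KIF2A, a depolymerase, was highest at 0.00.

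Other genes of G2 and mitotic entry had a median of -0.24, with 9 of 12 below 0. GTSE1, which is also counted among the spindle and cytokinesis genes above, stood at -0.49 on a probe set of the _x_at kind. The proliferation marker MKI67 read 1175.1 in siSHISA2 against 1621.5 in siCONTROL (-0.46). WEE1, the kinase that holds CDK1 inactive, read 1226.4 in siSHISA2 against 1678.9 in siCONTROL (-0.45). CKS2, a small CDK-binding protein, was highest at 0.13. In the DREAM and MuvB list 8 of 12 were below 0, against 47.8% of all measured genes, with a median of -0.16. LIN54, the subunit that contacts the CHR, read 68.9 in siSHISA2 against 105.1 in siCONTROL (-0.61). The pocket protein RBL1 read 224.4 in siSHISA2 against 341.8 in siCONTROL (-0.61), but its other probe set stood at -0.12. MYBL2 read 265.0 in siSHISA2 against 394.8 in siCONTROL (-0.58), and LIN37 was highest at 0.15. Cohesin and other condensin genes had 15 of 17 below 0 and a median of -0.23, with NCAPG2 of condensin II at -0.50, separase, ESPL1, at -0.46 and sororin, CDCA5, at -0.36, against 0.15 for the cohesin release factor WAPL.

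The 2 lists with medians nearest to 0 were those of the anaphase-promoting complex and of tubulins and pole factors. The anaphase-promoting complex list had 8 of 16 below 0, against 47.8% of all measured genes, and a median of -0.03. Its lowest member was FBXO5, encoding the inhibitor Emi1 (-0.31), followed by ANAPC11 (-0.15) and CDC23 (-0.14), and ANAPC13 was highest at 0.12. The other probe set stood at -0.46 for FBXO5, but at 0.39 for ANAPC11 and 0.09 for CDC23. Tubulin, dynein and pole factors had 17 of 24 below 0 and a median of -0.09, from NDE1 (-0.42), TUBA1A (-0.36) and TUBG1 (-0.34) to NDEL1 (0.26). The 4 probe sets of NDE1 ran from -0.42 to 0.05. Genes of G1/S and DNA replication, which act earlier in the cycle, had 33 of 36 below 0 and a median of -0.28. CDC45 (-0.67), GINS1 (-0.63) and POLE2 (-0.60) had the largest ratios in size, and RFC1 was highest at 0.12. None of these differences between lists could be tested with 1 array per group.

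**Figure D5:**
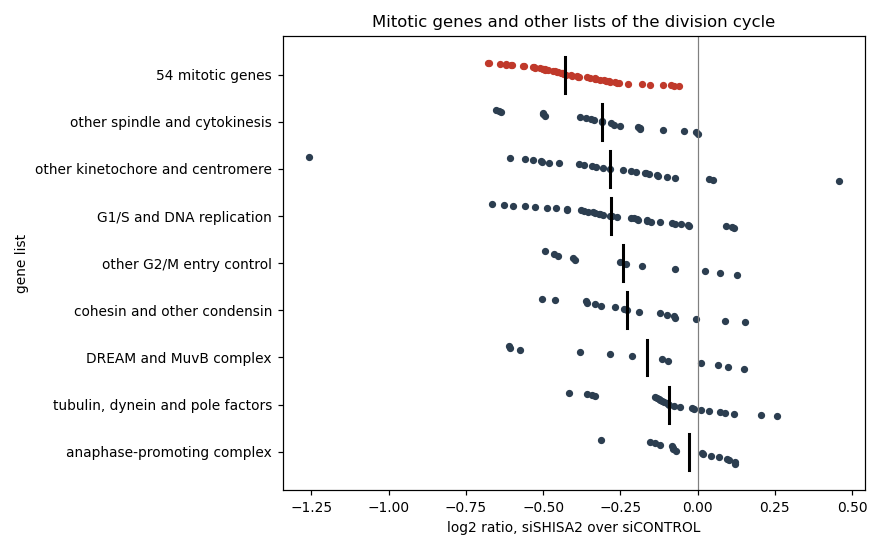
Log2 ratio of siSHISA2 over siCONTROL (x axis) for the 54 members (red, top row) and for the genes of 8 other lists (dark points, y axis), with black bars at the medians. The median of the members is -0.43, those of the other lists run from -0.31 to -0.03, and the anaphase-promoting complex list is spread on both sides of 0.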

How the data were processed

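RNA of PC-3 cells from 1 siSHISA2 and 1 siCONTROL sample was labelled with biotin from 250 ng of total RNA for a 3' in vitro transcription array, per the labels' protocols. The authors used MAS5, of a version not given in the sources used here, according to the submitters' processing notes, and deposited 1 intensity per probe set and array, on a linear scale. Groups were taken from the sample titles.

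Of 54675 probe sets 62 controls were left out, and 41097 probe sets have a single gene in the platform annotation, 1801 have several and 11777 are not listed. Gene identifiers of 41043 matched RefSeq (GRCh38.p14), used for names. Signals under 47.9, the median of all signals, were raised to that floor, and a probe set was measured if its higher signal exceeded it. Ratios were taken as log2 of siSHISA2 over siCONTROL, and the probe set brightest by mean log2 signal stood for a gene (Python 3.11.15, pandas 2.3.3). No p-value exists with 1 array per group. The number of arrays limits the precision. The steps were tested on simulated data.

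The members and lists were chosen with earlier results of these data known. All members were named, and of every other list the 3 genes with the largest ratio in size and the highest gene. NCAPD2, CDCA8 and INCENP were also named, after their values were seen, as partners of members. Protein sequences were not used here.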

Additional observations from a re-analysis of the deposited data

How the results depend on the processing

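The direction of the result held under the 8 alternatives fixed in the design, which changed the scaling (centring on medians, quantiles, a loess trend with span 0.3 taken out), the floor (11.3, 387.3, or none and 1 added to each signal) or the probe sets (averaged per gene, or without the _x_at and _s_at kinds). Every measured member was below 0 in each of them, 53 of 53 with the high floor, 40 of 40 without _x_at and _s_at probe sets, and 54 of 54 in the other 6. Of all measured genes, 46.1% to 50.1% were below 0 in these settings. The median of the members ran from -0.46 to -0.41. The count at or under 80% of the siCONTROL signal ran from 32 to 38, against 7.14% to 19.3% of all measured genes. The count at least 1.5-fold lower ran from 5 to 8, against 1.35% to 11.3%. With the floor at 11.3 the 1.5-fold shares were close, 7 of 54 members against 11.3% of all genes. There no member was 2-fold lower, against 5.49%. Of 104 recomputed values 101 stayed within 0.150 (medians) or 1.5 times (counts). Part of this agreement was fixed in advance. The lowest member signal was 150.2, so the floor at 11.3 left all these values unchanged. Median centring moved every member ratio by the same amount. Without _x_at and _s_at probe sets, 1 member was at least 2-fold lower, against 0.651% of all measured genes. This was PLK4, which was then read by its other probe set. The median of the mitotic kinases was -0.51 in that setting. With a mean over probe sets the cyclin-CDK median was -0.35, because the dim probe sets of CDK1 and CDC25C entered it. Median centring moved the median of all genes to 0.02, so no scaling shifted it by over 0.1.

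No paired analysis was possible because each group has 1 array. Low signals limit PLK1, CDC25C, KIF15, SPC24, LIN54, CENPI, CENPT, RBL1, MYBL2, CDC45, INCENP and the dim second probe sets. Variation between cultures was not measured.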

Other observations

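Among promoters, neighbouring CCAAT matches of members were 31 to 33 bases apart in 7 of 28 pairs (25%), against 8.0% of 3974 pairs in all promoters. The pairs were in NEK2, SPC25, CCNB1, HMMR, KIF20B and CCNB2, the last with 2 of them. In CCNB2 the 3 boxes nearest the start began 120, 87 and 54 bases before it. The distance was chosen after the sequences had been seen.

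Other measured genes with the same letters had medians near 0. Outside the members, 872 measured genes held TTTGAA in the 250 bases before the start, and 47.7% of them were below 0, with a median log2 ratio of 0.01. Those with CCAAT numbered 3625, with 49.6% below 0 and a median of 0.00. The 143 with at least 2 CCAAT and a TTTGAA or TTCGAA had 55.2% below 0 and a median of -0.03. The median was -0.44 for the 8 members with that combination and also -0.44 for the 38 members without it.

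The subunits of the chromosomal passenger complex, AURKB, BIRC5, CDCA8 and INCENP, had log2 ratios from -0.43 to -0.19. CDCA8 read 1356.0 in siSHISA2 against 1679.0 in siCONTROL (-0.31) and INCENP 106.7 in siSHISA2 against 121.3 in siCONTROL (-0.19). Both were named after their values were seen.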
